A study of Mus musculus with 23 samples.

Results

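Retinas of mice lacking both Rb and p107 were compared with wild-type (WT) retinas in the first of 2 profiling sets of microRNA (miRNA) assays. The comparison uses 6 of the 23 samples of the series, 3 double-knockout (DKO) and 3 WT samples, taken by their labels. The DKO genotype is Chx10Cre with a floxed Rb gene (Rb lox/lox) and p107 given as -/-, so that Rb is deleted where the Cre is active and p107 is not tied to it. Chx10 is a gene of retinal progenitors, and Chx10Cre is known to act in a mosaic of them, so that cells which kept Rb can remain in a DKO retina. The labels give no Cre for the WT samples. All samples are retina of a mixed background strain with no treatment. Age and litter, and whether each sample was a separate animal, are not stated in the labels. The p-values therefore rest on the spread between these samples alone, which may be technical. The Rb and p107 transcripts are not read by miRNA assays, and the genotypes could not be checked here. The other samples used below are the 3 DKO and 3 WT samples of the second set, labelled only DKO and WT, and the remaining first-set samples, 3 titled Dicer1 lox/lox with no Cre named (DicKO) and 4 titled with the DKO alleles and Dicer1 lox/lox together (DKO_DicKO).

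Rb and p107 are related pocket proteins that bind E2F transcription factors and hold back genes of the cell cycle. In the mouse retina, loss of both lets progenitors and some of their daughters divide when they should stop, and the series is about the dependence of such cells on p53 and the miR-17~92 cluster. A mature miRNA is a short RNA that pairs with target messenger RNAs mainly through its seed, bases 2 to 8, and lowers their translation and stability. miRNAs with the same seed form a family with largely shared targets, and miRNAs whose hairpins lie close together are often cut from 1 transcript.

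The sequences below carry the results that follow. They are the mouse mature miRNAs to which the assay names refer, from RefSeq (build GRCm38.p6), 5′ to 3′, with the seed in capitals. All 40 names looked up were matched. The first group rose in DKO or is a near relative of a miRNA that rose, and the pairs show how few bases separate relatives that were measured by assays of their own.
miR-29a: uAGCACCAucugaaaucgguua
miR-29b: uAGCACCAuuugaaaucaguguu
miR-27a: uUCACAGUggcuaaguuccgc
miR-27b: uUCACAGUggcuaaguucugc
miR-24: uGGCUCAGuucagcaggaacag
miR-449: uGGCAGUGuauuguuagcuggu
miR-146a: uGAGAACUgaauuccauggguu
miR-146b: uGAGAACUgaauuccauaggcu
miR-100: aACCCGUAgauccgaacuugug
miR-99a: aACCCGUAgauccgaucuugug
miR-99b: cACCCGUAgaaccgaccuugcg
miR-195: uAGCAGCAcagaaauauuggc
miR-497: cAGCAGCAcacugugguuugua
miR-15b: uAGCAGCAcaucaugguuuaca
miR-16: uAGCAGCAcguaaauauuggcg
The second group holds the fallen miR-149 and the sensory cluster, of which miR-182 fell.
miR-149: uCUGGCUCcgugucuucacuccc
miR-182: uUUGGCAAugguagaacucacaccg
miR-96: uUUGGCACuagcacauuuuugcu
miR-183: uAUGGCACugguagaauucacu
miR-27a and miR-27b differ at 1 of 21 positions, miR-100 and miR-99a at 1 of 22, miR-146a and miR-146b at 2 of 22, miR-195 and miR-16 at 2 of 21 positions compared, and miR-29a and miR-29b at 4 of 22. How far the assay of 1 of these miRNAs also reads its relative was not tested. The seeds of miR-96, miR-182 and miR-183 are not identical, although these 3 miRNAs lie side by side on chromosome 6.

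Each assay reverse transcribes 1 miRNA with a stem-loop primer and reads it by PCR with a fluorescent probe. The deposited value is the quantification cycle (Cq), which is lower the more template there was, and 1 cycle is about a doubling. Of 522 assays, 146 were detected (Cq 32 or lower) in all 6 samples and were tested, 102 were detected in 1 to 5 samples and 274 in none. Levels are given as scaled levels, on a log2 scale on which 0 is the mean of these 146 assays in the sample and 1 unit is about 1 cycle. A scaled level shows a miRNA relative to the other assays of its sample, and levels of different assays also differ by how well each assay works.

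No difference in total signal between the groups was detected. The mean Cq of the 146 assays was 26.0 ± 1.11 (SD, n = 3) in WT and 26.3 ± 1.12 (SD, n = 3) in DKO (two-sided exact permutation p = 0.6, where 0.1 is the smallest that 3 against 3 samples allow). WT had 170 to 228 detected assays and DKO 163 to 226, with replicate 2 of each group about 2 cycles earlier than the others. DKO replicate 1 stood apart. The SD of its differences from the other DKO samples over the 146 assays was 0.944 and 0.954, against 0.471 between DKO replicates 2 and 3 and 0.543 to 0.575 among the WT samples. In 6 assays it lay more than 2 log2 below the mean of the other DKO samples, among them miR-690 (−3.003 against 2.09 and 2.14), miR-9* (1.04 against 4.81 and 5.16) and 1 of the miR-378 assays (−1.92 against 0.86 and 2.20), and none of these 6 passed the test. Of the miRNAs that mark the labelled tissue, miR-9 of neural cells was at 6.35 to 6.97, miR-124a of neurons at 0.33 to 1.30 and miR-182 of photoreceptors at 2.28 to 4.40 in the 6 samples. The other such markers were lower, with miR-183 at −0.94 to 1.08 and miR-96 at −2.67 to −0.86. Another assay of miR-124a and that of its opposite arm miR-124* were detected in no sample. None of the 9 assays of the epithelial miR-200 family and none of the 22 assays of embryonic-type clusters was detected. An undetermined well does not prove a low level, since 42 assays without a value in any of the 6 samples had a Cq of 30 or lower in every WT and DKO sample of the second set, among them let-7a with a median Cq of 19.2.

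In DKO retinas 18 miRNAs were higher and 12 lower than in WT. Those that rose included miR-29a, the miR-27a and miR-24 pair, the E2F-induced miR-449, both members of the miR-146 family and 3 members of the miR-15/16 seed family. Among those that fell were miR-149, miR-182 and miR-183* of the sensory cluster, and 4 miRNAs of the imprinted Dlk1-Dio3 cluster. Called means an adjusted p under 0.05 in limma (two-sided, Benjamini-Hochberg over the 146 assays). The 30 calls are 20.5% of the assays tested, 12.3% higher and 8.22% lower, and 54 assays had an unadjusted p under 0.05. The groups did not overlap in 70 assays (47.9%), 37 of them higher in DKO (25.3%) and 33 lower (22.6%). Over all 146 assays the median difference was −0.07 and the median size of the difference 0.53 log2. Without any scaling no assay was called and 8 had an unadjusted p under 0.05 in limma, while all 30 kept their direction. Without DKO replicate 1 the count was 34, with 27 of the 30 among them. In a fit limited to the 61 assays detected also in all Dicer1 samples 8 were called, out of 12 of the 30 that could be tested there.

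**Figure D1:**
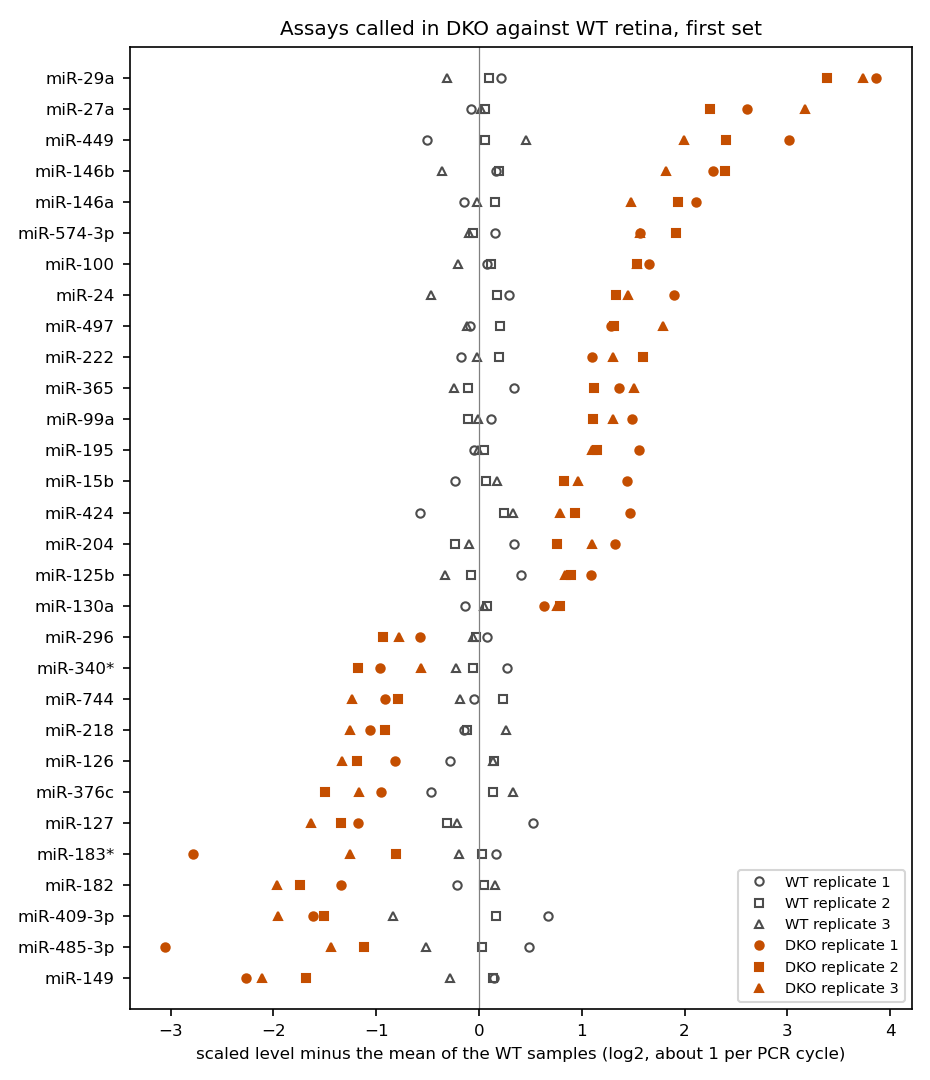
Scaled level minus the mean of the WT samples (log2, x axis) for the 30 called assays (y axis). Open grey symbols are the 3 WT samples and filled orange symbols the 3 DKO samples, with the shape giving the replicate number. The groups are separate in all 30 assays. DKO replicate 1 lies far below the other DKO samples in miR-485-3p and miR-183*.

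**Figure D2:**
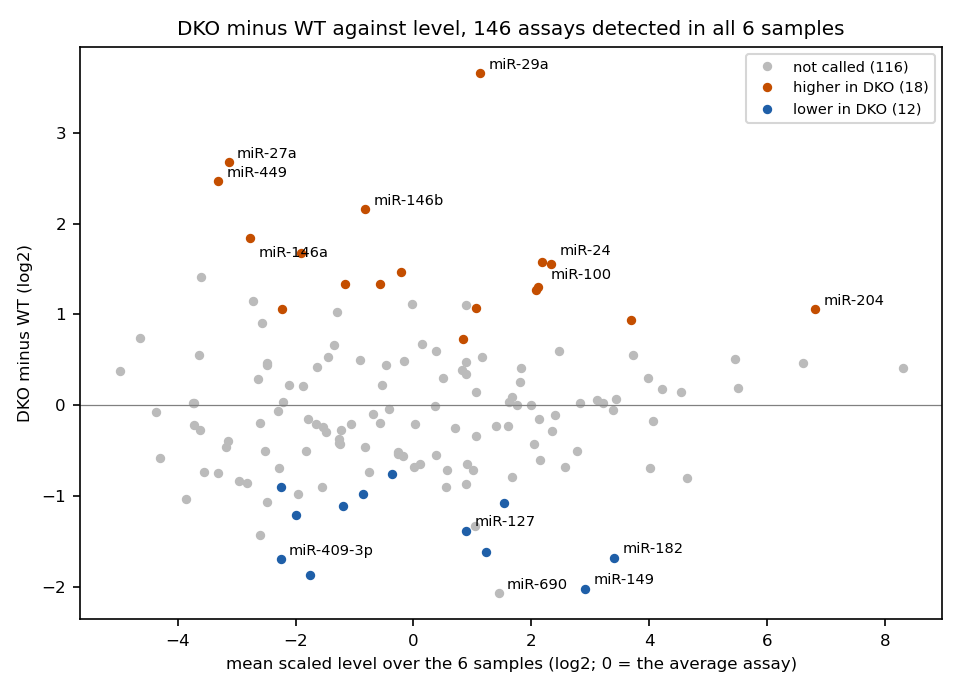
DKO minus WT (log2, y axis) against the mean scaled level over the 6 samples (log2, x axis), 1 point for each of the 146 assays. Called assays are orange (18 higher) or blue (12 lower) and the others grey. The calls spread over most of the range of levels, but none lies at its lowest or highest end. The point with the lowest difference, miR-690, was not called.

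The calls were not limited to strongly or weakly amplifying assays. Of the 45 assays with a mean Cq below 25, 10 were called, of the 61 between 25 and 28, 12, and of the 40 above 28, 8. The median SD within a group rose from 0.275 over 0.303 to 0.393 log2 across these classes, so the weaker assays were less precise.

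miR-29a, which represses collagen and DNA methyltransferase messenger RNAs, had the largest rise. Its scaled level was −0.49, −0.60 and −1.01 in the WT samples and 3.17, 2.69 and 3.04 in the DKO samples. All DKO samples lay more than 3 log2 above all WT samples, and the lowest was replicate 2. The difference was 3.66 ± 0.25 log2 (SE, adjusted p = 4.93e-05 in limma, n = 3 per group), or 12.7-fold, and it held without any single sample (3.51 to 3.80, adjusted p at most 0.000872). The mature miR-29a lies at chr6:31062673-31062694 on the minus strand, and its neighbour miR-29b at chr6:31063025-31063047, with a further copy on chromosome 1. miR-29b and the opposite arm miR-29a* were undetermined in all WT samples and detected in DKO replicates 2 and 3 only, miR-29b at Cq 29.81 and 31.57 and miR-29a* at Cq 29.00 and 31.02. These assays were not tested, and DKO replicate 1 had no value for either. The opposite arm of miR-29b, miR-29b*, had a difference of −0.54 (adjusted p = 0.535). Thus 1 of the 2 tested assays of this family was called.

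miR-27a and miR-24, which are cut from a shared transcript on chromosome 8 (hairpins at chr8:84208672-84208921), both rose. miR-27a was at −4.55, −4.41 and −4.46 in WT and at −1.86, −2.22 and −1.30 in DKO. Its WT samples lay close together and below each DKO sample, for a difference of 2.68 ± 0.27 (adjusted p = 0.000606). miR-24 was at 1.85, 1.73 and 1.09 in WT and at 3.45, 2.89 and 3.01 in DKO, a difference of 1.56 ± 0.28 (adjusted p = 0.0054). miR-24 is also encoded beside miR-27b on chromosome 13, and the mature sequence does not show from which place it came. miR-27b, 1 base away from miR-27a, had a difference of 0.42 (adjusted p = 0.204), with groups that did not overlap. Whether the differences of miR-27a and miR-27b are unequal was not tested. The opposite arm miR-27a* was undetermined in WT and at Cq 31.84 and 31.72 in DKO replicates 2 and 3. Of 8 assays of these clusters, 3 could be tested, and miR-23b was detected in 2 samples of each group.

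Of 6 assays for miRNAs that E2F proteins are known to induce, not counting the miR-17~92 cluster and its related clusters, both that could be tested rose. None of the tested assays of those clusters, with the miR-17 seed or another, was called, as given below. The list of 6 also does not hold miR-16, which is encoded beside miR-15b and was not called (0.14, adjusted p = 0.665). That both rose thus depends on what the list leaves out. miR-449, a miRNA that E2F1 induces and that represses CDK6 and other cell cycle genes, was at −5.05, −4.49 and −4.09 in WT and at −1.53, −2.14 and −2.55 in DKO. It amplified late, at Cq 27.17 to 31.79, and all DKO samples were above the highest WT sample. The difference was 2.47 ± 0.35 (adjusted p = 0.00158), and 2.20 without DKO replicate 1. An assay of miR-449b was undetermined in all WT samples and in DKO replicate 1 and had a Cq of 28.18 and 31.41 in DKO replicates 2 and 3. The other assay of miR-449b was detected in none of the 6 samples. miR-15b, also known as an E2F target, rose by 1.08 ± 0.25 (adjusted p = 0.0173). The call of miR-15b ended without WT replicate 1 or 2 (adjusted p at most 0.0579).

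The miR-15/16 seed family, which represses D-type and E-type cyclins and other cell cycle genes, had 3 called members of 5 tested, all higher. miR-497 and miR-195 lie within 419 bases of each other on chromosome 11 and rose alike. miR-195 was at 1.41, 1.51 and 1.45 in WT and at 3.01, 2.60 and 2.55 in DKO, and miR-497 at −1.03, −0.73 and −1.05 in WT and at 0.35, 0.38 and 0.86 in DKO. The differences were 1.27 ± 0.22 (adjusted p = 0.00479) and 1.46 ± 0.24 (adjusted p = 0.00372), and both calls held without any single sample. miR-16, which differs from miR-195 at 2 positions and lies beside miR-15b on chromosome 3 and beside miR-15a on chromosome 14, had a difference of 0.14 (adjusted p = 0.665). miR-15a had one of 0.44 (adjusted p = 0.244). miR-424, the name of the human counterpart of mouse miR-322, was called at 1.06 ± 0.32 (adjusted p = 0.0466) and is named here after its value was seen. It is not among the 5 tested members counted above, and whether its assay reads mouse miR-322 was not tested. The call of miR-424 ended without any single sample (adjusted p at most 0.107).

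Both tested members of the miR-146 family rose. These miRNAs are induced by NF-kappaB and repress the signalling proteins TRAF6 and IRAK1. miR-146a was at −3.83, −3.53 and −3.70 in WT and at −1.58, −1.75 and −2.21 in DKO, and miR-146b at −1.73, −1.71 and −2.26 in WT and at 0.38, 0.50 and −0.09 in DKO. In both assays DKO replicate 3 was the lowest DKO sample and still above each WT sample. The differences were 1.84 ± 0.25 for miR-146a and 2.16 ± 0.27 for miR-146b (adjusted p = 0.00131 for both).

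miR-146a is also 1 of 5 assays in the table that mark white blood cells and microglia. Of the 3 tested it was the only one called. miR-155 had a difference of 1.41 (adjusted p = 0.1) and miR-150 one of −1.03 (adjusted p = 0.0768). The log2 of the summed levels of the 3 assays ranged from −2.38 to −1.69 in WT and from −1.41 to −0.73 in DKO. Such a sum is set mostly by the assays with the highest levels, and miR-146a is part of it. Of the defining markers of these cells, miR-142-3p was undetermined in all WT samples and in DKO replicate 1 and had a Cq of 30.19 and 31.78 in DKO replicates 2 and 3, and miR-142-5p was detected in no sample. The part of these cells in the rise of miR-146a was not tested. In whole retinas, more or fewer cells of a type and more or less miRNA per cell cannot be told apart, here and in the results below.

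The families of miR-99, miR-100 and miR-125 were divided. miR-100 and miR-99a, which repress mTOR, rose together. miR-100 was at 1.47, 1.51 and 1.19 in WT and at 3.04, 2.93 and 2.93 in DKO, and miR-99a at 1.58, 1.35 and 1.45 in WT and at 2.95, 2.57 and 2.76 in DKO. The differences were 1.58 ± 0.21 (adjusted p = 0.00131) and 1.30 ± 0.22 (adjusted p = 0.00382), and both held without any single sample. miR-125b, encoded near both of them, rose by 0.94 ± 0.25 (adjusted p = 0.0343). Its call ended without any single sample other than WT replicate 1 (adjusted p at most 0.112). The relatives miR-99b and miR-125a-5p, which share their own locus on chromosome 17, had differences of −0.71 (adjusted p = 0.253) and −0.79 (adjusted p = 0.0588). let-7c, the neighbour of miR-99a on chromosome 16, had a difference of 0.18 (adjusted p = 0.68).

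miR-222, miR-574-3p and miR-365 also rose, and their calls held without any single sample. miR-222 represses the cell cycle inhibitor p27. It was at −1.995, −1.63 and −1.84 in WT and at −0.72, −0.23 and −0.52 in DKO, a difference of 1.33 ± 0.23 (adjusted p = 0.00479). Its neighbour miR-221 was detected in 1 DKO sample only. miR-574-3p rose by 1.68 ± 0.22 (adjusted p = 0.00131) and miR-365 by 1.33 ± 0.25 (adjusted p = 0.00555). miR-193b, next to a copy of miR-365, had a difference of −0.21. miR-130a was called at 0.73 ± 0.21 (adjusted p = 0.0383), also named after its value was seen, and its call ended without any single sample other than DKO replicate 1 (adjusted p at most 0.126). miR-130b, 2 bases away from it, had a difference of −0.74.

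miR-204, an abundant miRNA of the retinal pigment epithelium, ciliary body and lens, rose by 1.06 ± 0.26 (adjusted p = 0.0208). It was at 6.63, 6.05 and 6.19 in WT and at 7.61, 7.04 and 7.39 in DKO, so that DKO replicate 2 exceeded WT replicate 1 by under 0.5 log2. The difference was 0.26 (adjusted p = 0.288) under quantile normalization, and the call ended without WT replicate 2 or 3 or DKO replicate 3 (adjusted p at most 0.0919). The other markers of these tissues, miR-211 and miR-184, had differences of 0.51 (adjusted p = 0.342) and 0.67 (adjusted p = 0.144). The log2 of the summed levels of the 3 markers was 6.61 to 7.27 in WT and 7.61 to 8.05 in DKO, a sum set almost wholly by miR-204 and miR-211. What part such tissue had in the level of miR-204 was not tested.

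Among the miRNAs that fell, miR-149 had the largest change. It was at 4.07, 4.07 and 3.64 in WT and at 1.66, 2.24 and 1.82 in DKO. Each DKO sample was more than 1 log2 below each WT sample, and the difference was −2.02 ± 0.25 (adjusted p = 0.00131), or 4.06-fold lower. It held without any single sample (−2.19 to −1.90). The mature miR-149 lies at chr1:92850381-92850403.

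The sensory cluster of miR-182, miR-96 and miR-183 is typical of photoreceptors and of sensory hair cells. Of its 4 tested assays 2 fell. miR-182 was at 4.03, 4.29 and 4.40 in WT and at 2.90, 2.495 and 2.28 in DKO, a difference of −1.68 ± 0.25 (adjusted p = 0.00198) that held without any single sample. miR-183* was at 2.21, 2.07 and 1.84 in WT and at −0.74, 1.23 and 0.78 in DKO. Its difference of −1.61 ± 0.47 (adjusted p = 0.0412) was −1.03 without DKO replicate 1, by far its lowest sample (adjusted p = 0.0247), and its call ended without any WT sample or DKO replicate 3 (adjusted p at most 0.113). miR-96 had a difference of −0.91 (adjusted p = 0.0831), with groups that did not overlap, or −0.58 without DKO replicate 1. For miR-183 the groups overlapped, with levels of 0.00 to 1.08 in WT and −0.94 to 0.24 in DKO (difference −0.65, adjusted p = 0.25). The hairpins span 3820 bases (chr6:30165918-30169737).

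The imprinted Dlk1-Dio3 cluster on chromosome 12 holds many miRNAs that neurons express from the maternal copy. Of its 65 assays 14 could be tested, 4 of which fell and none of which rose. Of all 146 assays tested, 8.22% fell and 12.3% rose. The median difference of the 14 was −0.55 against −0.07 over all assays. Of the 14, 13 lay below 0, as did the median of all assays. miR-409-3p was at −0.73, −1.24 and −2.25 in WT and at −3.02, −2.92 and −3.37 in DKO (difference −1.69 ± 0.38, adjusted p = 0.0153). miR-127 was at 2.11, 1.28 and 1.38 in WT and at 0.41, 0.24 and −0.04 in DKO (difference −1.38 ± 0.28, adjusted p = 0.0106). Both of these calls held without any single sample. miR-485-3p was at −0.33, −0.79 and −1.33 in WT and at −3.87, −1.93 and −2.25 in DKO. Its difference of −1.87 ± 0.51 (adjusted p = 0.0343) was −1.28 without DKO replicate 1, the lowest sample, and the call ended without WT replicate 1 or 2 (adjusted p at most 0.111). miR-376c fell by 1.21 log2 (adjusted p = 0.0173), a call that ended without WT replicate 2 or 3 (adjusted p at most 0.0652). Among the uncalled members the lowest adjusted p was 0.0831, for miR-410 at −0.75. The smallest differences were those of miR-376a at −0.08 and miR-544 at 0.03. In another 14 assays of the cluster the miRNA was detected in 1 to 5 samples, and miR-380-5p was detected in 2 WT samples and no DKO sample.

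miR-218, which lies in introns of the Slit genes and is enriched in motor neurons, was the 1 called member of 10 tested neural miRNAs. It was at 1.93, 1.96 and 2.34 in WT and at 1.01, 1.15 and 0.82 in DKO, a difference of −1.08 ± 0.23 (adjusted p = 0.0118, or 0.0507 without WT replicate 3). The main neuronal miRNA miR-124a had a difference of −0.25 (adjusted p = 0.535), miR-9 one of 0.47 (adjusted p = 0.136), miR-137 one of −0.83 (adjusted p = 0.0728) and miR-132 one of 1.10 (adjusted p = 0.0615). The median of the list was 0.12.

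miR-126, the miRNA of blood vessel endothelium, fell by 1.11 log2 (SE 0.25, adjusted p = 0.0147). It was at −0.92, −0.49 and −0.49 in WT and at −1.45, −1.82 and −1.97 in DKO, and its call ended without WT replicate 2 or 3 or DKO replicate 3 (adjusted p at most 0.063). Its opposite arm miR-126* had a difference of −0.85 (adjusted p = 0.0735). miR-145, of vessel smooth muscle, had one of 0.91 (adjusted p = 0.0517), so the 3 tested vessel markers did not go one way. The log2 of their summed levels was −0.22 to 0.06 in WT and −0.65 to −0.63 in DKO. In each sample miR-126 itself was the highest of the 3. The part of vessels in the change of miR-126 was not tested. The muscle marker miR-133a had a difference of 0.38 (adjusted p = 0.389), and the red blood cell marker miR-486 was detected in no sample.

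The remaining falls were small. miR-744 fell by 0.98 log2 (adjusted p = 0.0195), miR-340* by 0.90 (adjusted p = 0.0383) and miR-296, which lies in the imprinted Gnas region, by 0.76 (adjusted p = 0.0383). The call of miR-744 ended without WT replicate 2 or DKO replicate 3 (adjusted p at most 0.0991). That of miR-340* was kept only without DKO replicate 3 and that of miR-296 only without DKO replicate 1 (adjusted p at most 0.104 and 0.126 without other samples).

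miR-17~92, the proliferation-linked cluster named in the title of the series, had no called member among 5 tested, although miR-19b passed under some alternatives. miR-17 had a difference of −0.05 (adjusted p = 0.948), miR-20a one of 0.02 (adjusted p = 0.963) and miR-92 one of 0.07 (adjusted p = 0.879), and the sign of each of these 3 turned under at least 1 other scaling. miR-19b had a difference of −0.80 (adjusted p = 0.0519), with groups that did not overlap, and was called without DKO replicate 1 (−0.93, adjusted p = 0.0376), under median scaling (−0.87, adjusted p = 0.0275), at a detection limit of Cq 30 (−0.84, adjusted p = 0.0285) and with trend and robust estimation (−0.80, adjusted p = 0.0387), but under no other alternative (adjusted p = 0.0526 to 0.972). miR-19a, 1 base away from miR-19b, had one of −0.68 (adjusted p = 0.191). miR-19b is also encoded on the X chromosome, and the mature sequence does not show from which place it came. miR-18a was detected in 2 samples of each group and miR-18a* in 1 of each. The related miR-106b~25 cluster had 0 of 4 members called, with miR-93 at 0.53, miR-25 at 0.49 and miR-106b at 0.41, and miR-106a and miR-20b of the related cluster on the X chromosome were not called either (0.02 and 0.23).

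In the let-7 family 0 of 6 tested members were called, and their differences lay between −0.23 (let-7g) and 0.56 (let-7b). The miR-30 family had 0 of 6 called, the miR-26 family 0 of 2 and the miR-181 family 0 of 2, with miR-181a at −0.68 (adjusted p = 0.0637). Of the p53-responsive miRNAs 0 of 5 were called. The nearest were miR-145, given above, and miR-34b-3p at 1.14 (adjusted p = 0.0683), while miR-34c was detected in 1 DKO sample only.

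**Figure D3:**
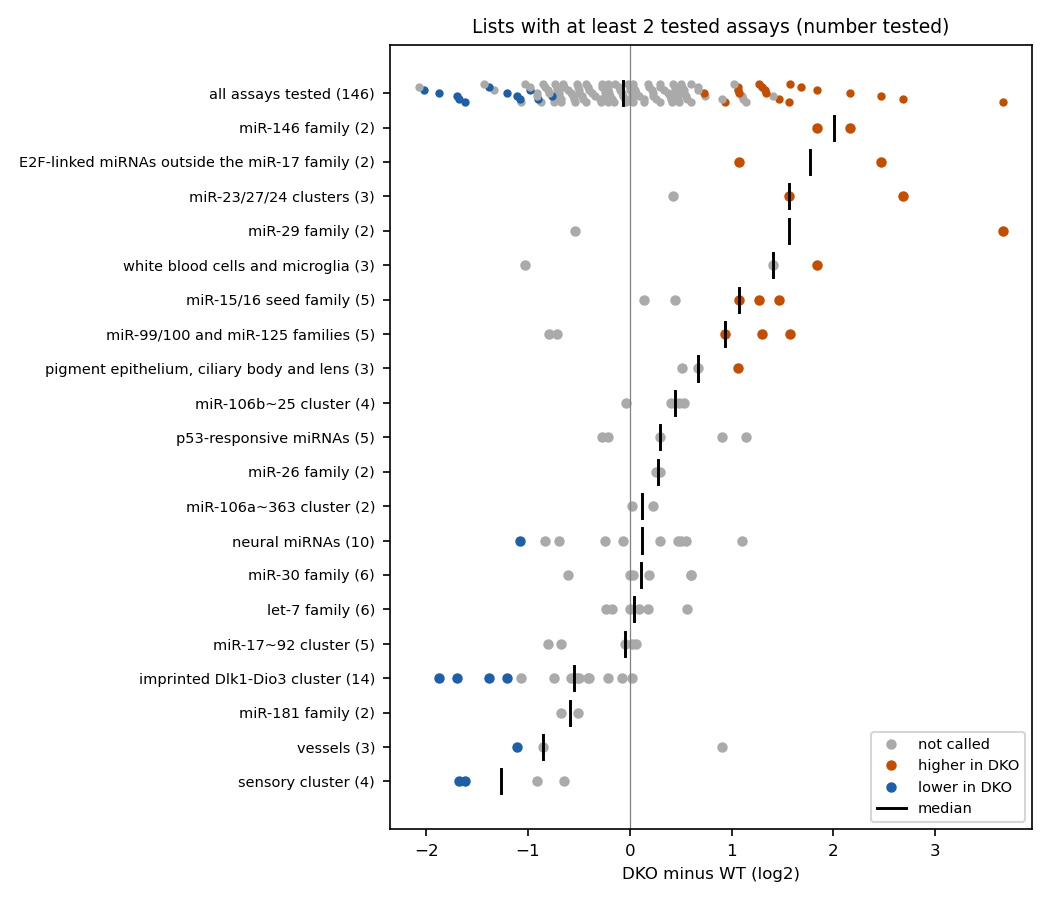
DKO minus WT (log2, x axis) for the tested assays of each list with 2 or more (y axis, number tested in brackets), with all 146 assays in the top line. Points are assays, orange where called higher, blue where called lower and grey where not called, and the black bar is the list's median. The miR-146 family lies wholly to the right, as do several other lists, and the sensory cluster wholly to the left, as does the miR-181 family. Lists without a call are among these, such as the miR-26 and miR-181 families. The 5 assays of miR-17~92 hold no call.

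Hairpins were matched by name for 123 of the 146 tested assays, and those within 10 kb of each other were grouped. In 13 groups at least 1 assay was called, and no group held calls in opposite directions. Groups without a call were not counted, so the share of groups with a call is not known. Both assays were called for miR-497 with miR-195 and for miR-27a with miR-24. In 5 groups with a rise the other assay was not called, namely miR-29b*, miR-27b, let-7c, miR-16 and miR-193b. In the 6 groups with a fall all uncalled assays had differences below 0, for example miR-340 at −0.37 with miR-340*. The median difference of all 146 assays was also below 0, at −0.07. The 6 groups with a fall are not separate sets of neighbouring genes. The groups of miR-340 with miR-340* and of miR-126 with miR-126* hold the arms of a single hairpin. Those on chromosome 12 are all parts of the Dlk1-Dio3 cluster described above. An uncalled neighbour was not tested against the called one.

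**Figure D4:**
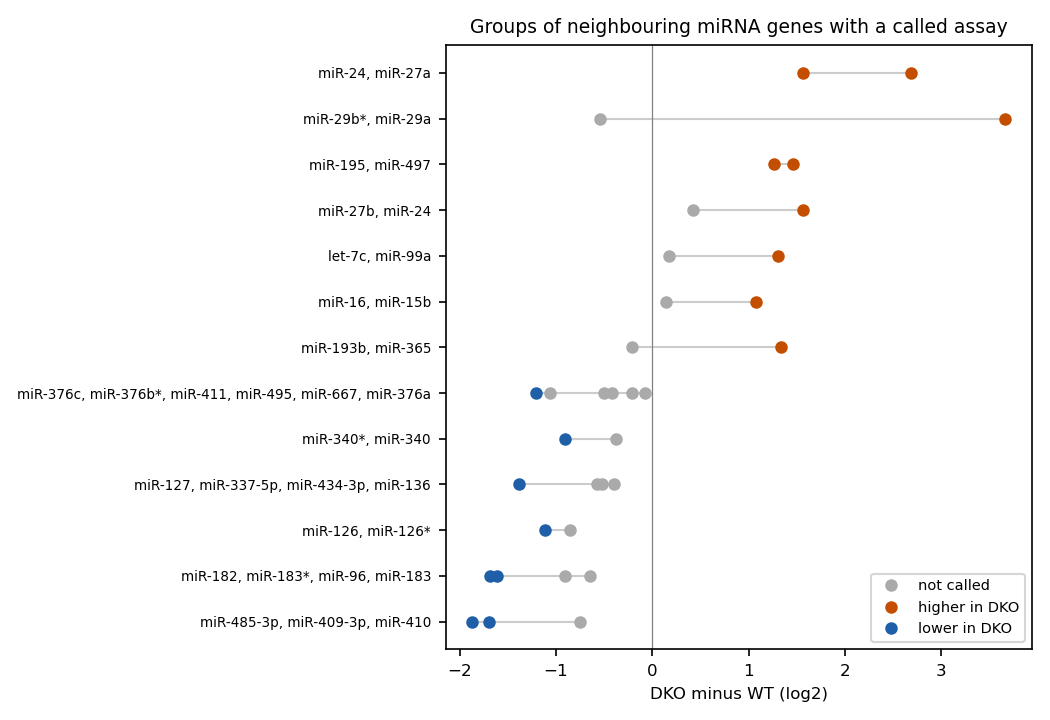
DKO minus WT (log2, x axis) for assays of neighbouring miRNA genes or of the arms of a single hairpin (miR-340 and miR-126), 1 line for each of the 13 groups that hold a call (y axis). Orange points were called higher, blue points lower, and grey points were not called. All groups with a fall lie left of 0, whereas miR-29b* and miR-193b lie left of 0 beside a neighbour that rose.

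No assay was detected in all 3 samples of 1 group and in none of the other. The nearest was miR-210, which responds to low oxygen. It had a Cq of 24.94, 23.16 and 25.04 in the WT samples, was undetermined in DKO replicates 1 and 3, and had a Cq of 25.04 in DKO replicate 2, the DKO sample with the earliest signal. miR-877* and miR-331-5p showed the opposite, with values in all DKO samples and in WT replicate 2 only. miR-877* had a Cq of 30.34, 25.57 and 27.42 in DKO and 25.09 in that WT sample. Since WT replicate 2 also amplified early, these counts were not tested.

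The second set holds its own WT and DKO samples, and the change in DKO was compared between the sets by an interaction term in limma over 145 assays detected in all 12 samples. Of the sensory cluster, miR-182 and miR-183* were lower in DKO in both sets. miR-182 changed by −1.68 ± 0.33 in the first and −2.42 ± 0.33 in the second set (adjusted p of the difference 0.282), and miR-183* by −1.61 and −2.17 (adjusted p = 0.573). The cluster's other assays differed between the sets, with miR-183 at −0.65 in the first and −2.65 in the second (adjusted p of the difference 0.0348) and miR-96 at −0.91 and −3.02 (adjusted p of the difference 0.0431). miR-146a rose by 1.84 and 1.81 (adjusted p = 0.973), with SEs of 0.43. These p-values do not show that the sets were equal.

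By contrast, the rise of miR-29a was 3.66 ± 0.37 in the first and 0.17 ± 0.37 in the second set, a difference of 3.49 (adjusted p = 0.00169). In the second set miR-29a was at 2.85, 2.91 and 2.31 in WT and 2.79, 3.77 and 2.02 in DKO, so its WT samples stood near the level of the first set's DKO samples. miR-27a rose by 2.68 and 0.29 (adjusted p of the difference 0.000947). miR-149 fell by 2.02 log2 in the first set and had a difference of 0.49 in the second (adjusted p of the difference 0.000315). These 3 differences between the sets held without any single sample of the 12 (adjusted p at most 0.0076). The 4 called Dlk1-Dio3 members had differences of 0.07 to 0.33 in the second set.

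Of the 30 calls, 20 had the same sign in the second set, 16 of the 18 higher and 4 of the 12 lower, beside 76 of all 145 assays. The median difference there was 0.40 for the 18 and 0.10 for the 12. The change differed between the sets for 18 of the 30 calls, beside 34 of all 145 assays (23.4%). The 30 were chosen by the first set's values, which are part of this difference, so the share among them has no test of its own. The count of 34 rests on few samples. It was 3 without WT replicate 2 of the second set, 4 without WT replicate 1 of it, 11 without its DKO replicate 3, and 16 each without its WT replicate 3, WT replicate 2 of the first set or DKO replicate 3 of the first set. Without scaling it was 0 in limma, with 4 assays at an unadjusted p under 0.05. The sets also differ in the number of assays with a value, and what else differed between them is not stated in the labels.

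**Figure D5:**
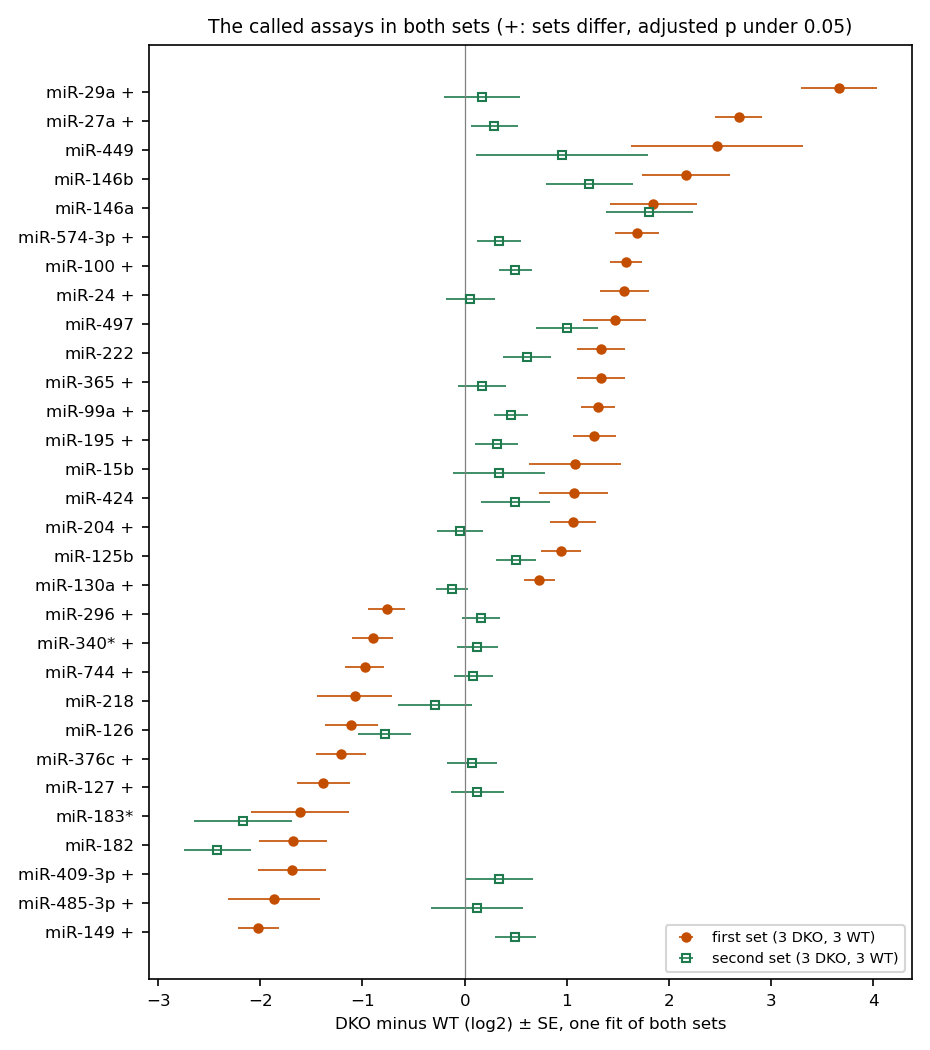
DKO minus WT (log2 ± SE, x axis) of the 30 called assays (y axis) in the first set (filled orange circles) and the second set (open green squares), from 1 fit of both sets. A plus sign marks the 18 assays whose change differed between the sets at an adjusted p under 0.05. miR-146a lies at nearly the same place in both sets, miR-183* and miR-182 lie left of 0 in both, and the sets lie far apart for miR-29a, miR-27a and miR-149.

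On a floxed Dicer1 background, DKO_DicKO minus DicKO compares samples that share none with the comparison above. By the titles, Cre is named for DKO_DicKO only. Cre and a deletion of Dicer1 may thus differ along with Rb and p107, and these cannot be told apart here. Dicer1 cuts miRNA precursors, and how far it was lost in these samples is not stated and was not measured. Over the 61 assays detected in all 13 samples of the set, DKO_DicKO minus DicKO differed from DKO minus WT for 5 (8.2%). This was an interaction test in limma, and 4 of the 5 were among the calls. miR-29a changed by 3.67 ± 0.53 in DKO against WT and by −0.84 ± 0.50 in DKO_DicKO against DicKO. The difference of 4.51 (adjusted p = 0.00223) held without any single sample (adjusted p at most 0.00964). miR-296 changed by −0.75 and 0.90 (adjusted p of the difference 0.0136, at most 0.048 without any single sample). For miR-195 the values were 1.27 and −0.11 and for miR-218 −1.07 and 0.44 (adjusted p of the difference 0.0303 for both, at most 0.0956 and 0.105 without a single sample). No assay was called for DKO_DicKO against DicKO. The count of 5 was 0 without scaling, with 1 assay at an unadjusted p under 0.05 in limma. It was 2 without WT replicate 2, DKO replicate 3 or DicKO replicate 1, 3 without WT replicate 1 or 3 or DKO replicate 1 or 2, and 9 without DKO_DicKO replicate 3.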

How the data were processed

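Per the labels' protocols, total RNA came from a Qiagen microRNeasy extraction and was copied with 522 pooled stem-loop primers; a pre-amplification of 14 cycles and detection by FAM followed. The values as deposited by the authors are Cq values in PCR cycles, not normalized, with undetermined wells left without a value; the software, threshold and baseline are not given in the sources used here. Of the columns, 10 without a name were empty and not used.

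The 146 assays whose Cq reached no more than 32 in each of the 6 samples were scaled by subtracting each Cq from the sample's mean Cq over them, so nothing was imputed. Only these 6 samples entered the fit, since the Dicer1 samples amplified later and would set the scale and the floor. limma 3.58.1 in R 4.3.3 (lmFit, eBayes, two-sided) was used, with Benjamini-Hochberg adjustment and a threshold of 0.05, and was tested on simulated data. Interaction terms were fitted over 12 and 13 samples. Mean Cq and detected numbers were compared by exact permutation tests. Named were the 12 largest rises and falls among the calls, called members of the lists, and detected assays of the miR-17~92 and sensory clusters. The members, lists and this rule were chosen with earlier results of these data known. Alternatives were other scalings, detection limits, treatments of undetermined wells, samples and models. The number of samples limits the precision.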

Additional observations from a re-analysis of the deposited data

Results flagged for a closer look

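The following values were noted because the DKO change differed by an interaction test in limma. Between the sets (first minus second), with adjusted p under 0.05 for each, the differences among the rises were 3.49 log2 for miR-29a, 2.39 for miR-27a, 1.51 for miR-24, 1.35 for miR-574-3p, 1.17 for miR-365, 1.11 for miR-204, 1.08 for miR-100, 0.95 for miR-195, 0.85 for miR-130a and 0.85 for miR-99a. Among the falls they were −2.51 for miR-149, −2.03 for miR-409-3p, −1.99 for miR-485-3p, −1.50 for miR-127, −1.27 for miR-376c, −1.06 for miR-744, −1.03 for miR-340* and −0.92 for miR-296. Of these 18, miR-29a, miR-27a and miR-149 passed without any single sample. The others did not (adjusted p at most 0.0605 to 0.108). The uncalled miR-96 and miR-183 differed by 2.12 and 2.00 the other way, as both were lower in the second set (−3.02 and −2.65) than in the first (−0.91 and −0.65), with adjusted p of 0.0431 and 0.0348, at most 0.0908 and 0.0808 without a single sample.

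Between DKO minus WT and DKO_DicKO minus DicKO, the differences were 4.51 for miR-29a, 1.39 for miR-195, −1.51 for miR-218 and −1.66 for miR-296. The cause of these differences was not tested.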

How the results depend on the processing

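All 30 calls kept their direction in every alternative that tested them. Of 306 values under the 11 alternatives other than leaving out a sample, 232 kept the call and 74 lost it, 30 of these without scaling. Of the other 44 losses, 6 were of miR-183*, 5 each of miR-340* and miR-424, 4 each of miR-485-3p, miR-125b, miR-130a and miR-296, 3 of miR-15b, 2 each of miR-376c and miR-204, and 1 each of miR-126, miR-222, miR-744, miR-409-3p and miR-127 (the last 2 in a linear model without empirical Bayes, adjusted p = 0.0998 and 0.0585), so 15 calls were kept under each alternative in which they could be tested, except the unscaled one. Not every call could be tested in each: 24 of the 30 were tested at Cq 30 and 12 in the fit of 61 assays. Without single samples 17 assays always kept the call and 13 did not. The count of 30 was 0 without scaling (8 at an unadjusted p under 0.05 in limma) and 8 of 61 assays detected in all 13 samples. It was 21 to 37 under the others and 20 to 34 without single samples. With the replicate block it was 25, with 23 of the 30 calls among them. The numbers were not taken to pair the samples, as deviations of same-numbered samples in scaled levels correlated at −0.181, 0.189 and 0.0489. Scaling removes a shift common to all assays, and in unscaled mean Cq replicate 2 was the earliest and replicate 1 the latest in both groups, so a shared source of that shift is not settled by this check. The difference in mean Cq (0.302) ranged from −0.335 to 0.932 without single samples, and that in detected assays (2) was −7.67 at Cq 30 and −7.33 at Cq 28. miR-17 was 0.20 under quantile normalization and −0.39 to 0.21 without single samples (0.19 without DKO replicate 2, 0.06 without DKO replicate 3). miR-20a was −0.28 without scaling, −0.045 with median scaling, −0.0086 with quantile normalization, −0.015 at Cq 30 and −0.22 to 0.19 without single samples. miR-92 was −0.24 without scaling, −0.0015 with median scaling and −0.080 to 0.16 without single samples. The assays that differed between the sets (34) were 0 without scaling (4 at an unadjusted p under 0.05 in limma) and 3 to 41 without single samples. Those that differed between DKO minus WT and DKO_DicKO minus DicKO (5) were 0 without scaling (1 at an unadjusted p under 0.05 in limma) and 2 to 9 without single samples. The cause was not tested.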
